A study of Mus musculus with 6 samples.

Results

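The genes described here build iron-sulfur clusters or carry them, and were measured by RNA-seq in mouse megakaryocytic-erythroid progenitors, the marrow cells that can form megakaryocytes or red cells. They are 36 of the 52459 genes in the deposited count table, chosen by name: 23 assembly factors and 13 client proteins. Each of the 36 names matched 1 row, and all 36 passed the filter on low counts. There were 6 libraries, 3 from WT mice and 3 from Tmprss6-/- (KO) mice. Tmprss6 is a liver protease that holds hepcidin down, and its loss starves the body of iron. Each library came from cells of 3 mice, pooled and sorted by their surface as Lin-, cKit+, Sca-, FcgRI/II-, CD150+, CD105- and CD41-. Strain, age and the kind of Tmprss6 allele are not stated in the labels, and neither genotype carried a further allele or treatment per the labels. The libraries address whether iron shortage in the animal goes with a change in these transcripts in the progenitors.

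Iron-sulfur clusters are small assemblies of iron and sulfide that proteins use to move electrons, to bind substrates or to hold their shape. They are made in mitochondria on the scaffold ISCU, with sulfur from the desulfurase NFS1 and electrons from ferredoxin, and are then passed on by chaperones and carriers. A second set of proteins makes clusters for enzymes of the cytosol and nucleus, such as DNA helicases and DNA glycosylases. In red cell precursors the pathway stands beside heme synthesis as a main user of mitochondrial iron, and loss of GLRX5 or HSCB is known to cause anemia. Amounts of mRNA say nothing on how many of the proteins hold a cluster.

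Total counts ran from 13402209 to 22986837 per library, and all 6 progenitor markers listed (Kit, Gata1, Gata2, Klf1, Epor and Zfpm1) were present in each library, with a summed level of 1868 to 4119 CPM in WT and 2018 to 3527 CPM in KO. CPM are read counts scaled to a common library size, after TMM. KO replicate 2 stood apart. It had the highest level of all 30 markers of other blood cells, 6 for each of 5 cell types, with sums of 6376 CPM for eosinophils, basophils and mast cells, 2938 for neutrophil precursors, 1685 for macrophages, 983 for lymphoid and plasma cells and 4766 for late erythroblasts. The highest sums elsewhere, in the same order, were 664 and 319 CPM (both WT 1) and 147, 707 and 301 CPM (all KO 3). The markers at 0 in any library were Prg3, Epx and Mcpt8, all in KO 3. Late erythroblast sums were 122, 137 and 82.0 CPM in WT 1 to 3. In KO 1 to 3 they were 258, 4766 and 301 CPM, each above all WT libraries. For the other cell types the WT and KO sums overlapped. What such cells add to the genes described here was not tested. Tmprss6 itself had at most 5 counts in any library and so checked no label. Libraries of the same replicate number resembled each other in numbers 1 and 3. Both libraries numbered 3 came from female mice by their transcripts (351 and 175 Xist counts, at most 1 Ddx3y count), and those numbered 1 and 2 from males (at least 872 Ddx3y counts, at most 1 Xist count). In pooled cells of this kind, fewer cells of a type and less RNA per cell cannot be told apart.

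Levels were compared between genes as CPM per kilobase of the longest annotated transcript, given as mean ± SD with n = 3 per genotype. Hspa9, the mitochondrial HSP70 that drives cluster transfer off the scaffold, led the 36 genes with 198 ± 52.4 CPM per kb in WT and 221 ± 62.7 in KO. Nubp2, a scaffold subunit of the cytosolic pathway, followed with 183 ± 53.9 CPM per kb in WT and 203 ± 75.7 in KO, and Glrx5, the mitochondrial glutaredoxin that relays clusters after the scaffold, had 145 ± 65.6 CPM per kb in WT and 154 ± 73.1 in KO. The mean ± SD ranges of these 3 genes overlapped, also with that of the next in the WT order, Hscb, the cochaperone of HSPA9, with 134 ± 46.2 CPM per kb in WT and 101 ± 58.3 in KO. Abce1, a ribosome recycling ATPase with 2 clusters, was the highest client with 117 ± 9.12 CPM per kb in WT and 122 ± 25.9 in KO. The sulfur-donating core was lower. Nfs1 stood at 53.8 ± 4.44 CPM per kb in WT and 54.6 ± 8.67 in KO, the scaffold gene Iscu at 58.0 ± 9.40 CPM per kb in WT and 67.4 ± 14.5 in KO, and Lyrm4, the small partner that stabilises NFS1, at 17.0 ± 8.46 CPM per kb in WT and 18.6 ± 10.2 in KO.

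The bottom of the order was held by nuclear clients. Mutyh, a glycosylase that removes misplaced adenine, had 2.19 ± 0.670 CPM per kb in WT and 2.78 ± 1.33 in KO. Brip1, the FANCJ helicase of crosslink repair, had 2.44 ± 0.356 CPM per kb in WT and 3.35 ± 0.763 in KO, and Ercc2, the XPD helicase of nucleotide excision repair, 2.83 ± 1.20 CPM per kb in WT and 3.13 ± 1.21 in KO. Mms19, which helps hand clusters to such DNA enzymes, was the lowest assembly factor with 4.54 ± 1.63 CPM per kb in WT and 4.65 ± 1.29 in KO. Neighbours in the WT order overlapped within their SD, apart from Iba57 over Nthl1 and Nubpl over Cisd3. Annotated lengths can exceed the transcripts that are expressed, so the order is approximate. The median over assembly factors lay between 26.2 and 47.1 CPM per kb in the 6 libraries, and the median over clients between 9.35 and 15.9.

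**Figure D1:**
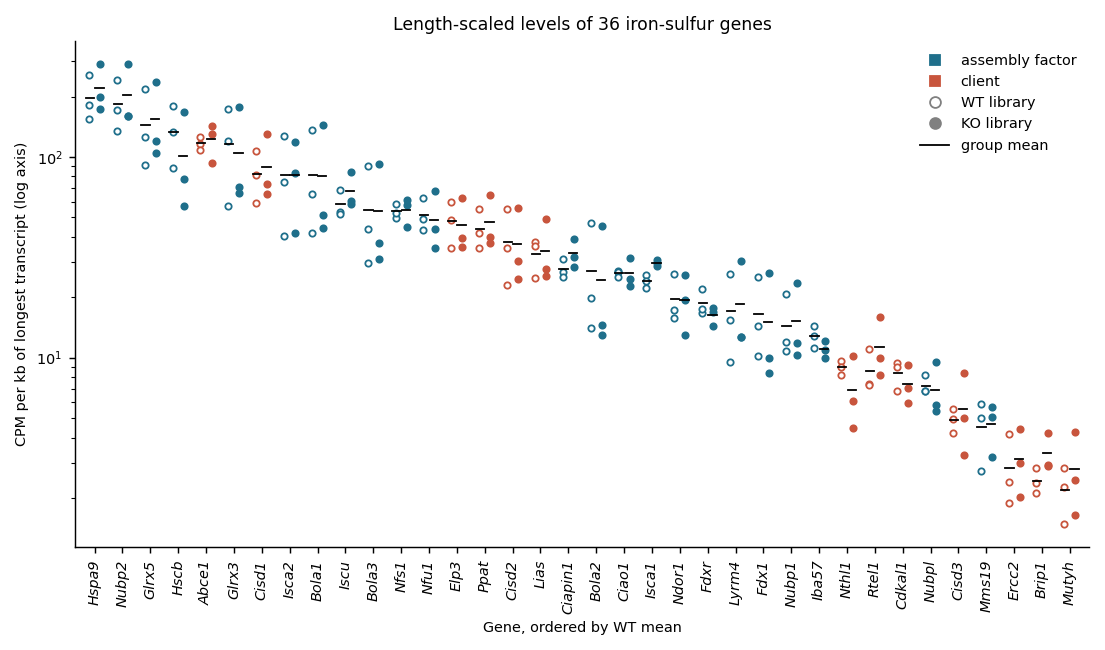
CPM per kilobase of the longest annotated transcript (log axis) for the 36 genes, ordered by WT mean, with open points for the 3 WT libraries, filled points for the 3 KO libraries and a bar for each group mean. Hspa9, Nubp2 and Glrx5 lead, nuclear clients such as Mutyh, Brip1 and Ercc2 sit lowest, and WT and KO points of a gene overlap for all but Isca1 and Brip1.

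Between genotypes the estimated differences of the iron-sulfur genes were small, and none was called. No member passed edgeR's test across all genes (0 of 36, against 0% of 13453 genes tested), and 0 of 36 had an unadjusted p under 0.05, against 1.74% of all genes. DESeq2 and limma voom, with and without quality weights, also called 0 members, with 0 at an unadjusted p under 0.05. The log2 fold changes of KO over WT ran from -0.41 to 0.46. Their median size was 1.10-fold in either direction, and the largest was 1.37-fold. The SE of a log2 fold change was 0.23 to 0.62, so the lack of a call does not show the lack of a difference. Of the 36 genes 20 had a positive and 16 a negative log2 fold change, with a median of 0.030 against -0.0048 over all genes tested.

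In 2 of 36 genes, Isca1 and Brip1, all KO libraries lay above all WT libraries, where 2.27% of all genes did so. In 0 of 36 all KO libraries lay below, against 1.75% of all genes (4.03% in either direction). When libraries were compared within each replicate number, 5 members were higher in KO in all 3 numbers (Iscu, Isca1, Ciapin1, Brip1 and Ercc2) against 11.6% of all genes, and 2 were lower in all 3 (Hscb and Iba57), against 13.3%. That is 7 of 36, below the 24.9% of all genes with one direction in all 3 numbers.

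**Figure D2:**
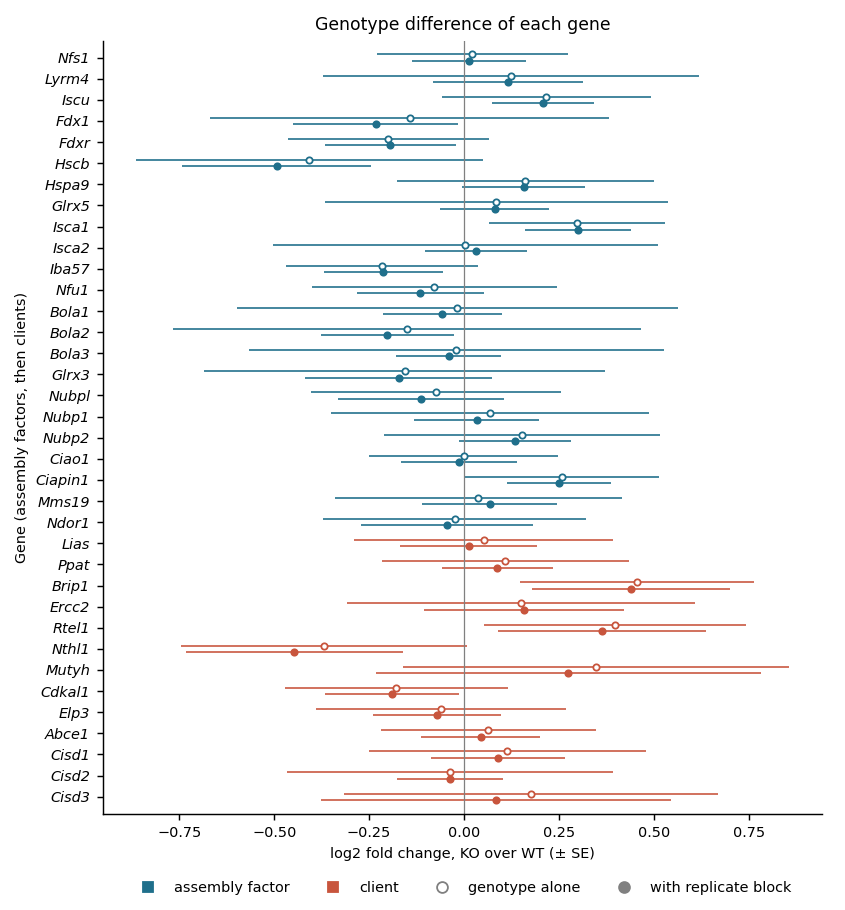
Log2 fold change of KO over WT with its SE for each of the 36 genes, from the comparison of genotypes alone (open) and with the replicate number as a block (filled). All values lie between -0.5 and 0.5, no gene passes the adjusted threshold in either fit, and the error bars are shorter with the block.

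Isca1 and Isca2 act together with IBA57 late in the mitochondrial pathway, where they make the larger clusters of enzymes such as aconitase and lipoate synthase. Isca1 (ENSMUSG00000044792, chromosome 13, 59755409 to 59769810, as in the deposited table) was at 105, 90.3 and 98.1 CPM in WT 1 to 3, against 116, 125 and 119.7 CPM in KO 1 to 3. The groups did not overlap, the WT libraries reaching at most 105 CPM and the KO libraries at least 116. The KO level was 1.23-fold that of WT, which did not pass the test (a log2 fold change of 0.30 ± 0.23 SE, with an adjusted p of 1.00 by edgeR), and the log2 differences within numbers 1 to 3 were 0.14, 0.47 and 0.29. Without KO replicate 2 the log2 fold change was 0.27. Isca1 shares 10876 bp on its strand with another annotated coding gene that is listed at 0 counts in all libraries, and how reads in shared stretches were assigned is not stated in the labels.

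Isca2 gave 202, 119.9 and 64.0 CPM in WT 1 to 3, against 189, 132 and 66.6 CPM in KO 1 to 3, a spread of about the same shape in both genotypes, with genotype means close together (a log2 fold change of 0.0034 ± 0.51 SE, with an adjusted p of 1.00 by edgeR). Its highest libraries were those numbered 1 and its lowest those numbered 3, whichever the genotype. Iba57 was at 44.9, 57.7 and 51.7 CPM in WT and 40.1, 44.1 and 48.8 CPM in KO, lower in KO within each number (a log2 fold change of -0.22 ± 0.25 SE, with an adjusted p of 1.00 by edgeR). The 3 partners thus did not share a direction, and no difference among them passed the test. Nfu1, a carrier that delivers clusters to lipoate synthase and the respiratory chain, ran from 88.1 to 169 CPM with the lowest and the highest value both in KO. Its partner Bola3 ran from 68.8 to 215 CPM, and Bola1, a partner of GLRX5, from 41.7 to 144 CPM, both with log2 fold changes of -0.020 or nearer to 0. Nubpl, which serves complex I, was low at 16.1 to 28.4 CPM.

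In the core complex the scaffold gene Iscu was at 96.1, 74.2 and 72.6 CPM in WT 1 to 3, against 117, 83.8 and 81.0 CPM in KO 1 to 3. It was higher in KO within each number, but the groups overlapped, with WT 1 above KO 2 and KO 3 (a log2 fold change of 0.22 ± 0.27 SE, with an adjusted p of 1.00 by edgeR). Nfs1 varied least of the 3, from 91.9 to 126 CPM, with a log2 fold change of 0.022. It shares 3454 bp on its strand with another annotated coding gene that is listed at 0 counts in all libraries. Lyrm4 spanned 19.8 to 63.4 CPM, and the log2 ratio of Nfs1 to Lyrm4 counts went from 0.90 in WT 1 and KO 1 to 2.60 and 2.25 in WT 3 and KO 3. By genotype the ratio was 1.75 ± 0.85 (SD) over the 3 WT libraries and 1.65 ± 0.69 over the 3 KO libraries, a smaller difference than either SD.

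No member of the ferredoxin electron chain passed the test. Fdxr, the reductase that feeds ferredoxin, was at 32.5, 34.1 and 42.9 CPM in WT and 33.0, 27.9 and 34.5 CPM in KO (a log2 fold change of -0.20 ± 0.27 SE, with an adjusted p of 1.00 by edgeR), with the highest library in WT and overlapping groups. Fdx1, a mitochondrial ferredoxin best known from steroid synthesis and lipoylation, lay between 23.3 and 73.1 CPM (log2 fold change -0.14). Fdx2, the ferredoxin that serves cluster synthesis itself, is listed under its older symbol Fdx1l with 0 to 4 counts per library. Its whole span of 6095 bp lies inside that of Raver1 on the same strand, which is listed with 0 to 4 counts too.

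Among the transfer factors Hscb, which brings HSPA9 to the scaffold, had the most negative log2 fold change of the 36. Hscb (ENSMUSG00000043510, chromosome 5, 110829070 to 110839777) was at 145, 107 and 70.6 CPM in WT 1 to 3, against 134, 46.0 and 62.7 CPM in KO 1 to 3. It was lower in KO within each number, with log2 differences of -0.11, -1.21 and -0.17, yet the groups overlapped and the difference did not pass (a log2 fold change of -0.41 ± 0.46 SE, with an adjusted p of 1.00 by edgeR). Number 2 carried most of it, and without KO replicate 2, the library with markers of other cells, the log2 fold change was -0.13. The part of those cells in the Hscb value was not tested. Hspa9 was at 473, 553 and 781 CPM in WT and 604, 526 and 889 CPM in KO, highest in both libraries numbered 3 (log2 fold change 0.16). Glrx5 was at 639, 367 and 268 CPM in WT and 696, 349.9 and 305 CPM in KO, highest in both libraries numbered 1 (log2 fold change 0.085).

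**Figure D3:**
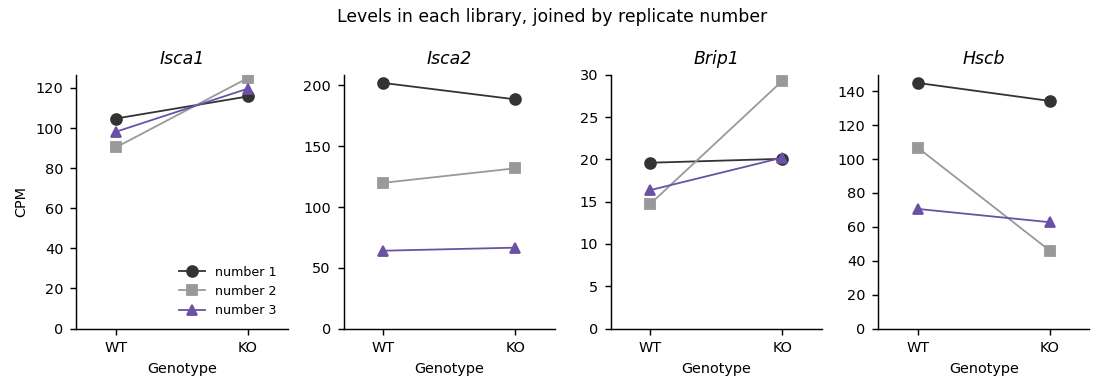
CPM of Isca1, Isca2, Brip1 and Hscb in the 6 libraries by genotype, with lines joining libraries of the same replicate number. Isca1 is higher in KO along each line with no overlap of the groups, Isca2 is flat along each line but differs about 3-fold between numbers, and the slopes of Brip1 and Hscb are steepest in number 2.

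The cytosolic pathway had 8 members here. Ciapin1 and Ndor1 form its electron chain, NDOR1 passing electrons from NADPH to CIAPIN1. Ciapin1 (ENSMUSG00000031781, chromosome 8, 94819804 to 94838358) was at 135, 117 and 110.2 CPM in WT 1 to 3, against 171, 124 and 139 CPM in KO 1 to 3. It was higher in KO within each number, but KO 2 lay below WT 1 and the difference did not pass (a log2 fold change of 0.26 ± 0.26 SE, with an adjusted p of 1.00 by edgeR). Ndor1 was at 70.9, 77.7 and 118 CPM in WT and 58.8, 116 and 87.3 CPM in KO, lower in KO in numbers 1 and 3 and higher in number 2. In the numbers 1 and 3 alone, with the number as a block, Ciapin1 and Ndor1 had log2 fold changes of 0.33 and -0.36 in opposite directions, with edgeR adjusted p of 0.20 and 0.19. That fit called 0 of 36 members, where 0.862% of 13572 genes passed, and 5 members had an unadjusted p under 0.05 (Hspa9, Nubp2, Ciapin1, Ndor1 and Cisd1), where 13.2% of all genes did.

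Nubp1 and Nubp2, which form the cytosolic scaffold together, had the steadiest balance. The log2 ratio of Nubp1 to Nubp2 counts was -2.55 ± 0.16 in WT and -2.65 ± 0.17 in KO (SD, n = 3), the narrowest range over the 6 libraries among 8 partner pairs compared. Those pairs were picked after the values were seen. Nubp1 ran from 33.8 to 77.4 CPM and Nubp2 from 203 to 437 CPM, with log2 fold changes of 0.069 and 0.15. Glrx3 and Bola2, which form a cluster-carrying complex in the cytosol, spanned 197 to 611 CPM and 49.3 to 179 CPM, and both were highest in the libraries numbered 1. Bola2 overlaps Slx1b by 384 bp and Coro1a by 26 bp on the other strand, and the kit does not mark strand. Ciao1, a platform of the targeting complex, varied little, from 70.0 to 96.2 CPM (log2 fold change -0.0013). Its partner Mms19 was at 21.5, 39.3 and 46.3 CPM in WT and 25.2, 44.7 and 40.0 CPM in KO, lowest in WT 1 and KO 1, and overlaps Zdhhc16 by 3019 bp on the other strand.

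Of the clients, Brip1 had the largest log2 fold change of the 36. Brip1 (ENSMUSG00000034329, chromosome 11, 86058138 to 86201193) was at 19.6, 14.7 and 16.4 CPM in WT 1 to 3, against 20.1, 29.3 and 20.2 CPM in KO 1 to 3. The groups did not overlap, but KO 1 and KO 3 lay just above WT 1, and the log2 differences within numbers 1 to 3 were 0.033, 0.98 and 0.30 (a log2 fold change of 0.46 ± 0.31 SE, with an adjusted p of 1.00 by edgeR). Number 2 held most of the difference. Without KO replicate 2 the log2 fold change was 0.25, 1.8 times smaller.

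The other nuclear clients of small p likewise leaned on KO replicate 2. Rtel1, a helicase that unwinds telomere loops, was at 33.1, 32.5 and 49.4 CPM in WT and 36.5, 70.7 and 44.1 CPM in KO (a log2 fold change of 0.40 ± 0.35 SE, with an adjusted p of 1.00 by edgeR), and without KO 2 its log2 fold change was 0.070. Mutyh was at 5.76, 3.03 and 4.63 CPM in WT and 5.01, 8.71 and 3.38 CPM in KO (a log2 fold change of 0.35 ± 0.51 SE, with an adjusted p of 1.00 by edgeR), which turned to -0.095 without KO 2. Nthl1, a glycosylase for oxidised pyrimidines, was lowest in KO 2, with 20.1, 18.7 and 17.0 CPM in WT and 21.3, 9.27 and 12.7 CPM in KO (a log2 fold change of -0.37 ± 0.38 SE, with an adjusted p of 1.00 by edgeR), and -0.13 without KO 2. KO 2 thus held the highest value of Brip1, Rtel1 and Mutyh and the lowest of Nthl1, and it is the library with the highest sums of all 5 other cell types. What these cells add to the 4 genes was not tested. Ercc2 was higher in KO within each number by small amounts, at 6.78, 8.61 and 14.9 CPM in WT and 7.22, 10.6 and 15.8 CPM in KO (log2 fold change 0.15).

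Neither metabolic client passed the test. Lias, which makes the lipoate cofactor of pyruvate dehydrogenase, was at 113, 108 and 74.8 CPM in WT and 147, 83.2 and 76.6 CPM in KO. Ppat, the first enzyme of purine synthesis, was at 147, 174 and 228 CPM in WT and 166, 155 and 270.4 CPM in KO. Their log2 fold changes were 0.051 and 0.11, with both groups overlapping. Ppat overlaps Paics, listed at 8387 to 21486 counts per library, by 272 bp on the other strand.

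None of the 3 clients of RNA and protein synthesis passed it. Cdkal1, which modifies a tRNA for lysine, was at 29.9, 41.0 and 39.3 CPM in WT and 25.9, 31.0 and 40.5 CPM in KO (a log2 fold change of -0.18 ± 0.29 SE, with an adjusted p of 1.00 by edgeR). Elp3, the tRNA-modifying subunit of Elongator, spanned 103 to 182 CPM with a log2 fold change of -0.061. Abce1 stayed within 354 to 543 CPM with a log2 fold change of 0.064.

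The CDGSH proteins hold a cluster bound by an unusual histidine and sit in the mitochondrial outer membrane (CISD1), the endoplasmic reticulum (CISD2) or the mitochondrial matrix (CISD3). Cisd1 was at 116, 88.3 and 64.0 CPM in WT and 140.4, 70.6 and 79.5 CPM in KO, and Cisd2 at 191, 122 and 79.9 CPM in WT and 193, 104 and 85.5 CPM in KO. Their log2 fold changes were 0.11 and -0.037. Cisd3 was rare, at 4.10, 3.10 and 3.63 CPM in WT and 3.67, 6.16 and 2.42 CPM in KO, or 33 to 99 counts per library (a log2 fold change of 0.18 ± 0.49 SE, with an adjusted p of 1.00 by edgeR). Its highest value was in KO 2, and without that library the log2 fold change was -0.25.

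Assembly factors and clients were then compared over all 6 libraries. The median log2 fold change was -0.0013 over the 23 assembly factors, 11 of them positive, and 0.11 over the 13 clients, 9 of them positive, against -0.0048 over all genes tested. The medians differed by -0.11 in assembly factors relative to clients. This difference was not stable, as it was 0.056 without KO replicate 2, 0.13 without WT 1, -0.25 without WT 3 and -0.41 without KO 1. The assembly median alone was 0.29 without WT 1 and -0.38 without KO 1.

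Within numbers the median KO minus WT difference of the assembly factors was 0.12, -0.23 and 0.058 log2 units in numbers 1 to 3. That of the clients was 0.089, -0.21 and 0.062. Both medians were thus slightly positive in numbers 1 and 3 and negative in number 2, with no test of these values. The difference of the mean log2 CPM was 0.11, -0.22 and 0.046 for assembly factors. For clients it was 0.075, 0.13 and -0.017, so their sign in numbers 2 and 3 depended on the measure. The number of assembly factors with a positive log2 fold change, 11 of 23 with all libraries, was 17 without KO 2 or WT 1, 15 without KO 3, 9 without WT 2, 7 without WT 3 and 6 without KO 1.

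The mean log2 CPM of the assembly factors was 6.85, 6.48 and 6.26 in WT 1 to 3, against 6.95, 6.26 and 6.31 in KO 1 to 3. The clients stayed at 5.38, 5.26 and 5.38 in WT and 5.46, 5.39 and 5.36 in KO. The gap between the classes was therefore widest in the libraries numbered 1, at 1.46 in WT 1 and 1.50 in KO 1, and 0.87 to 1.22 in the other 4. By genotype the gap was 1.19 ± 0.29 (SD) for the 3 WT libraries and 1.11 ± 0.34 for the 3 KO libraries. KO minus WT was -0.085, smaller than either SD.

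The larger contrast among these genes ran between replicate numbers. Each number holds 1 WT and 1 KO library, so number was compared with genotype kept as a term in the fit, a comparison added after the data were seen. In 34 of 36 members the number 1 over number 3 difference was larger in size than the KO over WT difference, the exceptions being Isca1 and Brip1. Over all genes tested the median size was also larger between these numbers, at 0.76 against 0.17 between genotypes on the log2 scale, and over the members 0.67 against 0.13. Between number 1 and number 3, 18 of 36 members passed (edgeR adjusted p under 0.05), where 30.1% of 13453 genes did. Of these, 14 were higher in number 1, against 13.6% of all genes, and 4 were lower, against 16.5%. Assembly factors made up 11 of the 14 and 1 of the 4.

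The 3 BolA genes, whose products help glutaredoxins and NFU1 carry clusters, led the genes higher in number 1. Bola1 was at 135 and 144 CPM in WT 1 and KO 1, 64.8 and 51.3 CPM in WT 2 and KO 2, and 41.7 and 43.9 CPM in WT 3 and KO 3, 3.26-fold higher in number 1 than in number 3 (log2 fold change 1.70 ± 0.20 SE, with an adjusted p of 0.0085 by edgeR). Bola2 was at 179 and 172 CPM in WT 1 and KO 1, 75.0 and 49.3 CPM in WT 2 and KO 2, and 53.5 and 55.2 CPM in WT 3 and KO 3 (log2 fold change 1.69 ± 0.22 SE, with an adjusted p of 0.0087 by edgeR), and Bola3 at 208 and 215 CPM in WT 1 and KO 1, 101 and 86.3 CPM in WT 2 and KO 2, and 68.8 and 71.6 CPM in WT 3 and KO 3 (log2 fold change 1.59 ± 0.17 SE, with an adjusted p of 0.0085 by edgeR). All 3 BolA genes were thus about 3-fold higher in number 1 than in number 3, with WT and KO close together within each of these numbers. In number 2, Bola2 was lower in KO by 0.60 log2 units and Bola1 by 0.34.

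Isca2 (log2 fold change 1.58 ± 0.17 SE, with an adjusted p of 0.0085 by edgeR), Glrx3 (log2 fold change 1.45 ± 0.30 SE, with an adjusted p of 0.02 by edgeR), Fdx1 (log2 fold change 1.36 ± 0.27 SE, with an adjusted p of 0.017 by edgeR) and Lyrm4 (log2 fold change 1.36 ± 0.24 SE, with an adjusted p of 0.014 by edgeR) followed. Glrx5, at 639 and 696 CPM in number 1 and 268 and 305 CPM in number 3, was also higher in number 1 (log2 fold change 1.22 ± 0.18 SE, with an adjusted p of 0.0094 by edgeR). Cisd2, Hscb, Nubp1, Nubp2, Cisd1 and Lias completed the 14, with log2 fold changes of 1.21, 1.07, 0.97, 0.85, 0.84 and 0.78.

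Of the 4 genes lower in number 1, 3 are clients and 1, Mms19, is an assembly factor, while 3 clients were also among the genes higher in number 1. Ercc2 was at 6.78 and 7.22 CPM in WT 1 and KO 1, 8.61 and 10.6 CPM in WT 2 and KO 2, and 14.9 and 15.8 CPM in WT 3 and KO 3 (log2 fold change -1.13 ± 0.32 SE, with an adjusted p of 0.045 by edgeR). Mms19 was at 21.5 and 25.2 CPM in WT 1 and KO 1, 39.3 and 44.7 CPM in WT 2 and KO 2, and 46.3 and 40.0 CPM in WT 3 and KO 3 (log2 fold change -0.89 ± 0.22 SE, with an adjusted p of 0.03 by edgeR). Elp3 and Ppat had log2 fold changes of -0.70 and -0.67. In 19 of 36 members both libraries numbered 1 lay above the other 4, against 25.2% of all genes, and in 4 of 36 below them, against 26.3%.

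The calls rest on both libraries of each number. With only 1 library left in number 1 or 3 the members called were 6 without WT 1, 1 without KO 1, 0 without WT 3 and 1 without KO 3, where 7.83%, 2.24%, 0.0424% and 2.49% of all genes passed, while all 18 called members kept their sign. Leaving out WT 2 or KO 2 gave 25 members each, where 50.7% and 55.8% of all genes passed. Number 1 against number 2 gave 0 of 36 calls (0% of genes, 16 members at an unadjusted p under 0.05, against 29.2% of genes), and number 2 against number 3 gave 0 of 36 (0.0223% of genes, 5 members at an unadjusted p under 0.05, against 18.7%). DESeq2, run for number 1 against number 3, called 20 members, where 4996 of 13453 genes passed.

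**Figure D4:**
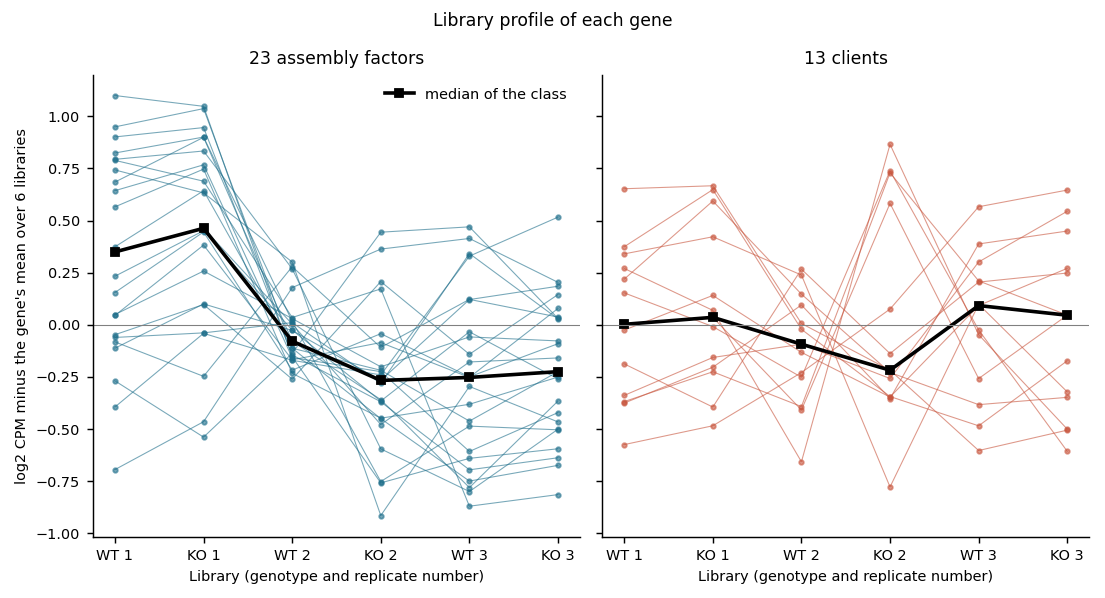
Log2 CPM of each gene minus its mean over the 6 libraries, for the 23 assembly factors and the 13 clients, with the libraries ordered by replicate number and the class median in black. Most assembly factors are higher in WT 1 and KO 1 than in the libraries numbered 2 and 3, while clients go both ways and their median stays near 0.

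Coding length moved with this contrast. The 14 members higher in number 1 had a median coding length of 459 nt (258 to 1122 nt), the 4 lower ones 1989 nt (1551 to 3093 nt) and the 18 without a call 1226 nt. Across the 36 genes the log2 difference between numbers 1 and 3 had a Spearman correlation of -0.77 with coding length, and a Pearson correlation of -0.78 with its log2. These genes share the same 6 libraries and are not independent replicates. Across 11403 tested genes with a coding length the Spearman correlation was -0.61, so the pattern was not particular to the iron-sulfur genes. With the length of the longest transcript instead, it was weaker across the 36 genes, at -0.49, and -0.60 across 13443 tested genes. The median difference over all genes went from 1.14 for coding lengths up to 500 nt to -1.08 above 3000 nt. Over the 10 members of up to 500 nt the median was 1.29, and over the 9 members above 500 and up to 1000 nt it was 0.58, against 0.50 for all genes of that length. For longer genes the members had 0.035 against -0.014 above 1000 and up to 1500 nt (6 members), -0.59 against -0.35 above 1500 and up to 2000 nt (6 members), -0.89 against -0.68 above 2000 and up to 3000 nt (2 members), and -0.44 against -1.08 for the 3 members above 3000 nt.

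Assembly factors are the shorter class, with a median coding length of 825 nt against 1551 nt for clients and 1371 nt for all genes tested. By longest transcript these medians lay closer together, at 2925, 3453 and 3036 nt. Within the assembly factors the Spearman correlation with coding length was -0.75 (n = 23) and within the clients -0.73 (n = 13). Isca1 stood off this pattern. At 387 nt it is among the shortest genes by coding length, yet its number 1 over number 3 difference was 0.025, against 1.58 for Isca2 at 462 nt. By longest transcript Isca1 is not short, with 4060 nt against 1588 nt for Isca2 and a median of 2991.5 nt over the members. Brip1 stood off the coding length pattern too, with a coding length of 3522 nt and a difference of 0.14. The KO over WT difference had a Spearman correlation of 0.13 with coding length across the 36 genes and 0.053 across all genes. The libraries numbered 3 are the female ones and the 2 deepest libraries are those numbered 1. The median log2 difference of the assembly factors was 0.64 for number 1 over number 2 and 0.0070 for number 2 over number 3. Number 2 holds KO 2, the library with markers of other cells. Between numbers 1 and 3, number, sex and depth cannot be told apart. The part of sex was not tested. The part of length in the difference between numbers was not tested.

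**Figure D5:**
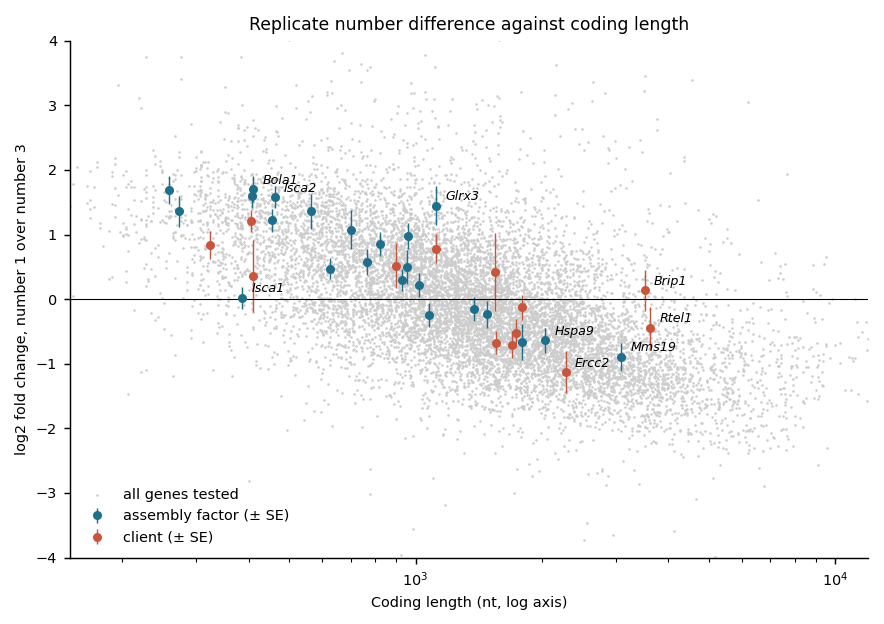
Log2 fold change of number 1 over number 3 (genotype kept as a term) against coding length (log axis) for the 36 genes with SE, over all tested genes with a coding length in grey. Short genes such as Bola1 and Isca2 lie near 1.5, long ones such as Mms19 and Ercc2 near -1, and Isca1 and Brip1 lie near 0. Beyond the axes are 86 genes.

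With the replicate number as a block in the fit, the genotype differences of the members kept their small size. No label says that the numbers pair the libraries. Over the 36 members the libraries numbered 2 did not pair (a correlation of -0.30), so the SE of this fit holds only if the block does. The SE was smaller for 36 of 36 members, with a median of 0.17 in place of 0.35. Isca2 had a log2 fold change of 0.031 with an SE of 0.13, Glrx5 0.081 with 0.14 and Bola3 -0.041 with 0.14. That fit called 0 of 36 members (0% of 13453 genes) and 0 at an unadjusted p under 0.05, against 3.54% of all genes.

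Other genes of the pathway, taken from 3 lists, likewise gave 0 calls between genotypes. Of 13 other assembly factors 12 passed the filter and 0 were called, 5 with a positive and 7 with a negative log2 fold change (median -0.035). Slc25a37, the mitochondrial iron importer of erythroid cells, was at 8.44, 11.9 and 12.1 CPM in WT and 6.05, 82.5 and 14.2 CPM in KO. This is a log2 fold change of 1.66 ± 0.86 SE, with an adjusted p of 1.00 by edgeR. The difference was held by KO 2, the library with the highest marker sum of every other cell type listed. What these cells add to the Slc25a37 value was not tested. Slc25a28, the other iron importer, had a log2 fold change of -0.15.

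Of 26 other clients 25 passed the filter and 0 were called, 20 with a positive and 5 with a negative log2 fold change (median 0.096). Of the 25, 1, Fech, had an unadjusted p under 0.05, against 1.74% of all genes. In 1 all KO libraries lay above all WT libraries, against 2.27% of all genes, and in 1 below, against 1.75%. In numbers 1 and 3 alone with the block, 22 were higher in KO, 3 lower and 0 called. In that fit 6425 genes of the main fit were higher in KO and 6836 lower, and 0.862% of 13572 genes were called. Of these other clients 8 had an unadjusted p under 0.05 by edgeR there, against 13.2% of all genes. Fech, which puts iron into heme and itself holds a cluster, was at 216, 166 and 229 CPM in WT 1 to 3, against 300.1, 499 and 273 CPM in KO 1 to 3. All KO libraries lay above all WT libraries, with the highest value in KO 2 (a log2 fold change of 0.81 ± 0.33 SE, with an adjusted p of 1.00 by edgeR), and in numbers 1 and 3 alone the log2 fold change was 0.36 (edgeR adjusted p = 0.14). Xdh, xanthine oxidoreductase, was at 5.26, 6.27 and 3.63 CPM in WT and 4.95, 35.1 and 5.51 CPM in KO, high in KO 2 alone. Dna2, a nuclease-helicase of replication, was at 36.4, 36.2 and 46.2 CPM in WT and 43.4, 69.5 and 58.3 CPM in KO (a log2 fold change of 0.53 ± 0.29 SE, with an adjusted p of 1.00 by edgeR). Of 7 lipoate users and transferases 0 were called (4 positive, 3 negative, median 0.045). The 3 of smallest p, Lipt2, Dlat and Gcsh, had log2 fold changes of -0.25, 0.15 and -0.21.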

How the data were processed

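RNA-seq counts of sorted progenitors were deposited for 6 libraries, 3 WT and 3 KO. The deposited values are whole-number read counts per Ensembl gene, unscaled. The submitters' processing notes name FastQC 0.11.5, STAR 2.5.3a, edgeR and the builds GRCm38.p3 and GRCh38.p3 for the deposited counts. Per the labels' protocols, cDNA came from a SMART-Seq v4 kit and libraries from Nextera XT, which does not mark strand. The read counter, its strand setting and its handling of overlapping genes are not named there or in the labels, so counts of overlapping genes are uncertain. Coordinates are those of the deposited table (GRCm38 per those notes). Each library is a separate pool of 3 mice per the series' design text.

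Genes were filtered with filterByExpr (minimum count 10, minimum total 15), which kept 13453 of 52459, with TMM scaling. The genotype test was edgeR 4.0.16's quasi-likelihood test (R 4.3.3), two-sided, with Benjamini-Hochberg adjustment over all genes tested and a threshold of 0.05. The SE is that of the log2 fold change. Log2 CPM per library add a prior count of 2. Lengths are those of the longest transcript and longest coding sequence in GENCODE M21 (GRCm38), matched for 36 of 36 members. Alternatives used DESeq2 1.42.0, limma 3.58.1, other scaling, no filter, a replicate block and leaving out libraries. The fits were tested on simulated data.

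The members, lists, alternatives and tests were chosen with earlier results of these data known. The rule described in full the members past the threshold, those whose groups did not overlap, and the 6 assembly factors and 6 clients of smallest p, with up to 3 genes per other list, apart from a gene that is not reported here. Other members are named by role. Whether replicate numbers pair the libraries was judged by correlation, as no label gives a meaning to the numbers. Each library's deviation from its group mean in log2 CPM correlated at 0.53, 0.16 and 0.63 over all genes for numbers 1, 2 and 3, each above 0.1. Over the 36 members these were 0.90, -0.30 and 0.80, so number 2 did not pair among them.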

Additional observations from a re-analysis of the deposited data

How the results depend on the processing

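Of 168 values of 12 members under 14 alternatives, 163 kept their direction and stayed without a call, and the other 5 changed sign, also without a call. In the numbers 1 and 3 with the block, Rtel1, Mutyh and Cisd3 had log2 fold changes of -0.013, -0.32 and -0.36, and without KO replicate 2 Mutyh and Cisd3 had -0.095 and -0.25, the lowest of ranges that reached 0.61 and 0.44 without 1 library. The cause was not tested. Genes called over all genes were 0 with edgeR (234 at an unadjusted p under 0.05), 6 with DESeq2 (346), 0 with the replicate block (476) and 117 in the numbers 1 and 3 with the block (1789), and leaving out 1 library gave 0 to 0. Members called were 0 under all 14 alternatives. The median of assembly factors minus that of clients was -0.11, with -0.23 under voom with quality weights, -0.0040 in the numbers 1 and 3 with the block, and -0.41 to 0.13 without 1 library. The assembly median was -0.38 to 0.29 without 1 library, and the client median 0.027 to 0.18. The replicate block changed no call of a member. Members called between numbers 1 and 3 were 18, and 0 to 25 without 1 library (25 without WT 2 or KO 2, which leave both libraries of numbers 1 and 3), 25 in the 4 libraries of those numbers, 20 with DESeq2, 17 with RLE scaling and 18 without a filter. Over all genes, 30.1% passed between numbers 1 and 3 in the main fit, and 56.4% in the 4 libraries of those numbers. The share was 50.7% without WT 2, 55.8% without KO 2, 30% with RLE scaling and 15.2% without a filter. DESeq2 called 4996 of 13453 genes there. Counts of 33 to 99 per library limit the precision for Cisd3.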
